A study of Mus musculus with 8 samples.

Results

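The 10 genes described here, Hspa5, Hsp90b1, Calr, Canx, Pdia4, Pdia6, Xbp1, Dnajb9, Herpud1 and Sdf2l1, encode chaperones and folding enzymes of the endoplasmic reticulum (ER) and components of the unfolded protein response, the programme that adjusts them. They were chosen by name, as genes that read the ER side of cellular stress, and every probe set annotated to exactly 1 of these symbols was taken: 23 probe sets for 10 of the 18193 genes that the array reads through a 1-symbol probe set. Mouse embryonic stem (ES) cells labelled with strain Oct4-Gip, at passage 25, received by lipofection either an esiRNA against Ctr9 or an esiRNA against luciferase as the transfection control, and RNA was taken on day 4. An esiRNA is a pool of short interfering RNAs cut from a longer double-stranded RNA, and Ctr9 encodes a core protein of Paf1C, a complex that travels with elongating RNA polymerase II. There were 4 one-colour Affymetrix arrays per treatment, and the question is whether the transcripts of the ER folding machinery differ between the 2 treatments.

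The ER folds and glycosylates proteins bound for the cell surface, for secretion and for the endomembranes. When unfolded proteins build up there, the chaperone BiP, the product of Hspa5, leaves the sensors IRE1, PERK and ATF6. IRE1 then splices the mRNA of Xbp1 into the form that encodes the active transcription factor, ATF6 is released from the membrane by proteases and moves to the nucleus, and PERK lowers translation in general while raising that of ATF4. Shortage of amino acids reaches ATF4 through another kinase, GCN2, without the other ER sensors, so that chaperone transcripts and ATF4 target transcripts can be read side by side. Embryonic stem cells divide quickly and depend on this folding capacity for their surface and matrix proteins.

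The promoters are shown first, because the genes share sequence elements through which the response is known to act. RefSeq windows (GRCm38.p6) of 250 bases before and 50 bases after the annotated start were matched by symbol for 10 of the 10 genes. The ER stress response element (ERSE, CCAAT and CCACG with 9 bases of any kind between them) was looked for on both strands, along with the related ERSE-II (ATTGG and CCACG with 1 base between them), the core of the unfolded protein response element (TGACGTGG) and the composite element of ATF4 and C/EBP factors (TGATGNAA). Both ERSE forms contain CCACG and a CCAAT box in 1 of its orientations. An exact ERSE stood in the windows of 5 of the 10 genes, Hspa5, Hsp90b1, Calr, Canx and Pdia6, against 0.119% of all 32851 windows of this length. Herpud1 held an ERSE-II, found in 0.0365% of windows, and also the ATF4 composite element, found in 3.97% of windows. None of the 10 windows held TGACGTGG, which stood in 0.676% of all windows. A match describes these letters only, and a window without one may hold variants that were not searched. The 10 genes were chosen as genes of this response, so matches to its known elements are a description, and enrichment was not tested. The percentages count windows and not genes. Whole windows are shown for Herpud1, the gene of the 10 with the largest fall, for Calr, which fell less, and for Hspa5, whose brightest probe set did not pass the test. All are written 5′ to 3′ along the gene's strand, with the fixed letters of each match in capitals.
Herpud1 window, chr8:94386179-94386478, plus strand: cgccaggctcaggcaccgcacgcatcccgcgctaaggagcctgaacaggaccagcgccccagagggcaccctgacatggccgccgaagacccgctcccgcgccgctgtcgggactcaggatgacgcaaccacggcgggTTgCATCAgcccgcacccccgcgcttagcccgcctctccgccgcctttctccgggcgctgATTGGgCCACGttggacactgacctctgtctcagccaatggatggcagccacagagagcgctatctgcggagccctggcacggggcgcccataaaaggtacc
Calr window, chr8:84846882-84847181, minus strand: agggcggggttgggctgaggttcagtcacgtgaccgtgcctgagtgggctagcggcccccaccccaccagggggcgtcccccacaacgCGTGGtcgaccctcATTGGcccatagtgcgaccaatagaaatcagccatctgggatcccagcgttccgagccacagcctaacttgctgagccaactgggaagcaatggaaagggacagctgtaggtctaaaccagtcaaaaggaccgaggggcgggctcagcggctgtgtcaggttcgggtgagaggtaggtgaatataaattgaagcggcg
Hspa5 window, chr2:34771840-34772139, plus strand: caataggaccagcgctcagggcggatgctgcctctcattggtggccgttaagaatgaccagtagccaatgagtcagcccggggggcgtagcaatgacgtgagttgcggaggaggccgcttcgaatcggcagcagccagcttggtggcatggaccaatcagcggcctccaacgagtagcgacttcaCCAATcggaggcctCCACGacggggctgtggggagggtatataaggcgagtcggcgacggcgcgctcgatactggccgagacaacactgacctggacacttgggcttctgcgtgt

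In the Herpud1 window the ATF4 composite element lies on the opposite strand, from 112 bases upstream of the start, and the ERSE-II lies closer, from 52 bases upstream. The 2 matches do not overlap. Hsp90b1 held 2 ERSE matches and Canx and Pdia6 held 1 each; only the matches are shown, to compare the bases between the fixed letters.
Hsp90b1, plus orientation, from 212 bases upstream: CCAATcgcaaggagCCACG
Hsp90b1, opposite orientation, from 107 bases upstream: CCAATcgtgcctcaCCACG
Canx, plus orientation, from 145 bases upstream: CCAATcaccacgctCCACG
Pdia6, plus orientation, from 98 bases upstream: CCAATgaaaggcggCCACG

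**Figure D1:**
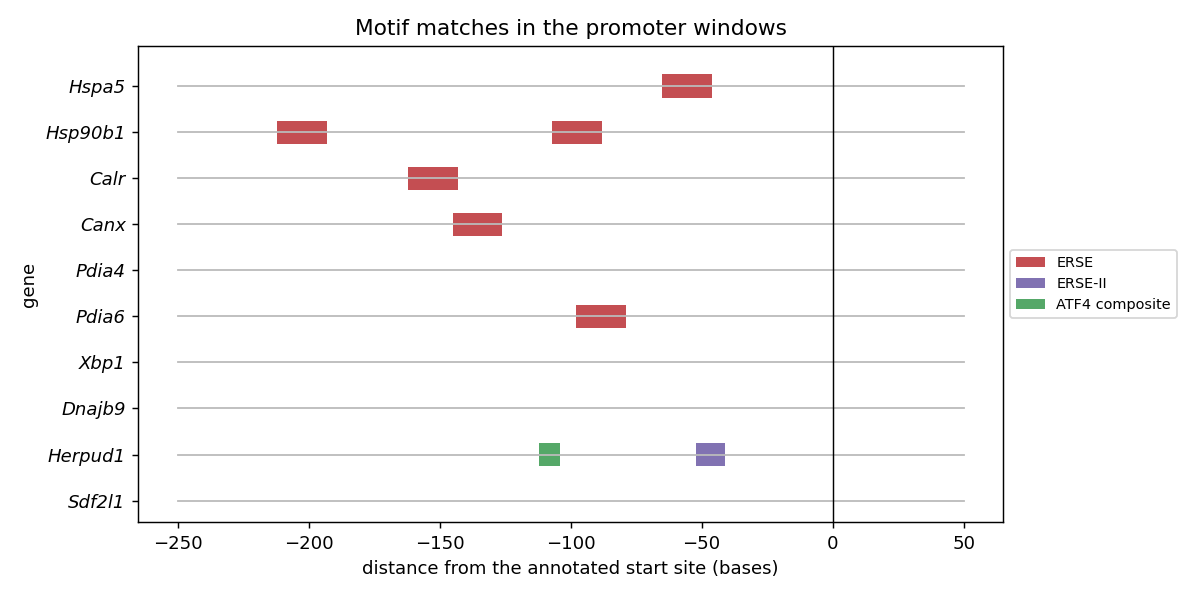
Positions of exact motif matches in the promoter windows of the 10 genes (rows), with the distance from the annotated start site in bases on the horizontal axis; each bar spans 1 match and its colour names the motif. Hsp90b1 holds 2 ERSE matches, Herpud1 holds an ERSE-II and an ATF4 composite element, and Pdia4, Xbp1, Dnajb9 and Sdf2l1 hold none.

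Across the whole array, the 8 arrays were close in scale, with upper quartiles of 8.10 to 8.15 on the log2 scale, and correlated at 0.997 to 0.998 within a treatment and 0.992 to 0.994 between treatments. Of 45037 probe sets tested, 24.9% passed the test (limma, Benjamini-Hochberg adjusted p under 0.05), 13.1% lower and 11.8% higher with Ctr9 esiRNA. The target did not move in 1 direction: of 5 Ctr9 probe sets, the brightest gave -0.09 on the log2 scale without passing, the next brightest fell by 0.15 and 0.18, and the dimmest went the other way: 1 rose by 0.29 and 1 was higher by 0.27 without passing. The pluripotent cell markers read high in both groups, with array means over 11 markers of 12.76 to 12.80 in luciferase and 12.35 to 12.39 in Ctr9 esiRNA arrays, and 7 of the 11 fell. Markers of other cell types rose in part: 10 of 13 trophectoderm markers, 9 of 20 endoderm markers (with 2 lower) and 5 of 16 fibroblast markers. The endoderm list was written for primitive and parietal endoderm, but its risers do not name 1 type of endoderm. Lrp2 and Dab2 rose by 1.51 and 1.26, and the laminin gene Lama1 fell by 1.07. The factor genes Gata4 (0.07) and Gata6 (-0.12) did not pass. The fibroblast markers had array means of 5.11 to 5.23 in luciferase and 5.31 to 5.37 in Ctr9 esiRNA arrays. Single fibroblast markers averaged from 3.44 (Fap) to 7.77 (Mmp2) in the luciferase arrays, whose medians were 5.74 to 5.76. Mmp2 and Col1a2 (6.12), both above the medians, rose by 0.42 and 0.24. Col5a2 (5.69), Dcn (5.72) and Twist1 (5.53), all below the medians, rose by 0.74, 0.57 and 0.41. The collagen genes Col1a1 (5.34) and Col3a1 (4.12), also below them, did not pass. The part of these cells in the results below was not tested, and in bulk RNA fewer cells of a type and less RNA per cell cannot be told apart. Whether replicates were separate cultures is not stated in the labels. The p-values below therefore measure only the spread among these samples, possibly a technical one, and precision is limited by having 4 arrays a group.

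Read by the brightest probe set, Herpud1, Xbp1 and Calr fell (3 of 10), none of the 10 rose, and 7 did not pass. The share that passed is near that of all 18193 genes, of which 30.8% passed, 15.0% lower and 15.8% higher. Over 18 alternative settings, 2 to 7 of the 10 genes passed. The share of all genes in those settings is not given here, so these counts cannot be set against the 30.8%. The median difference of the 10 genes was -0.058 on the log2 scale, against 0.0036 over all genes. The 4 values of each treatment did not overlap for 5 of the 10 genes, against 36.6% of all genes. Over all 23 probe sets, 10 were lower, 1 was higher and 12 did not pass. Of all probe sets tested, 13.1% were lower and 11.8% higher. The 23 probe sets read only 10 genes, so they are not separate results. Groups did not overlap for 15 of the 23, against 28.6% of all probe sets. Of the 23 probe sets, 21 read above the array median in every array. The other 2 are dim probe sets of Pdia4 and Pdia6.

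**Figure D2:**
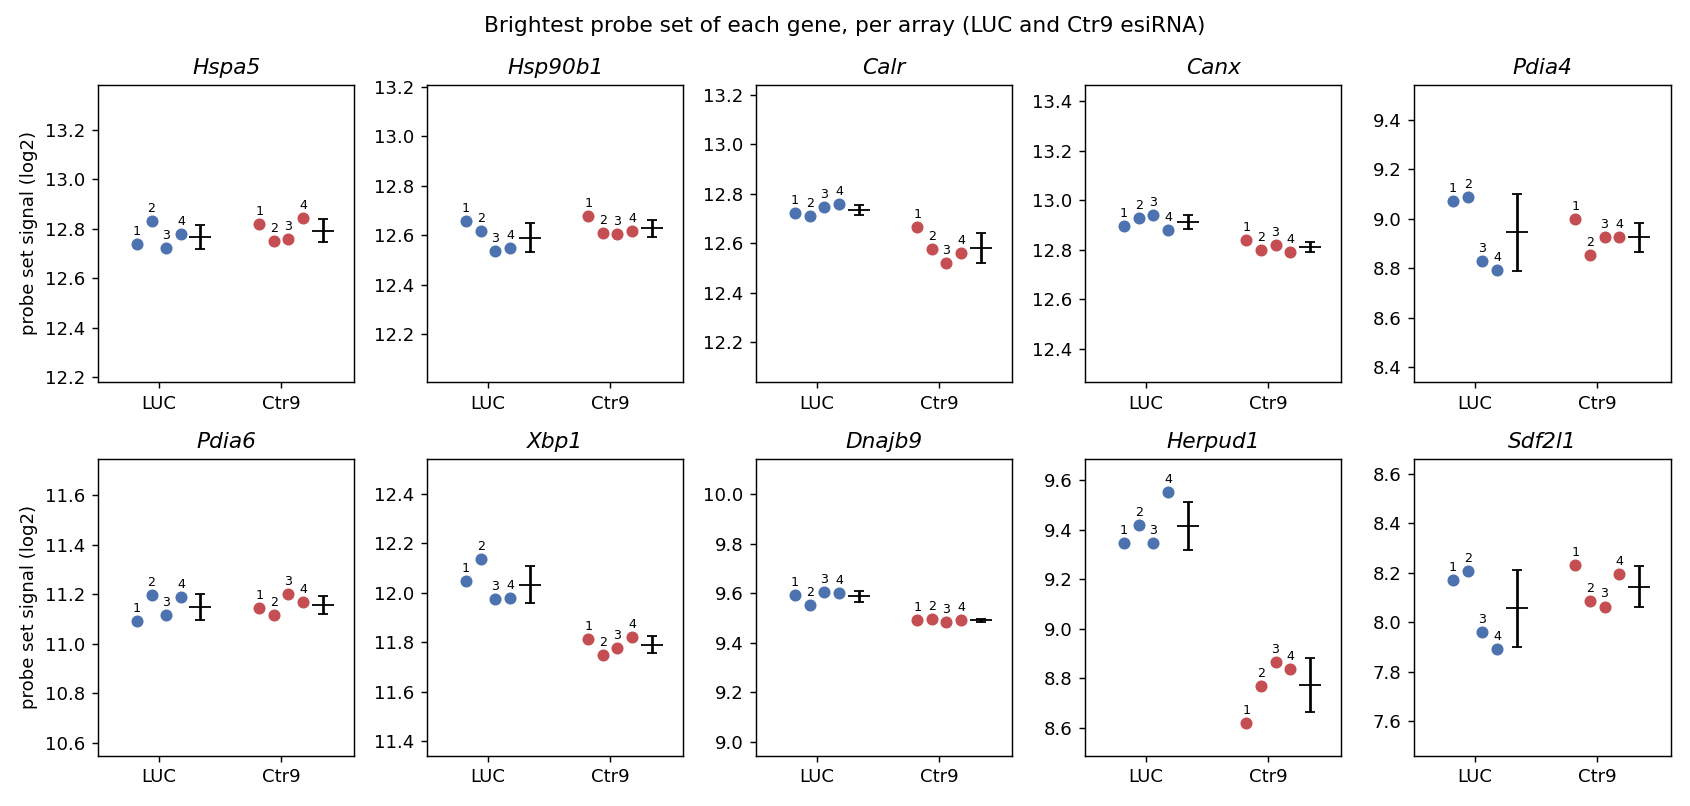
Log2 signal of the brightest probe set of each of the 10 genes in each array, with the replicate number beside each point, luciferase esiRNA (LUC) in blue and Ctr9 esiRNA in red; black bars are the mean and SD of 4 arrays and every panel spans the same log2 range. The groups lie apart for Herpud1, Xbp1, Calr, Canx and Dnajb9 and overlap for the other 5 genes.

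Hspa5 encodes BiP, the ER Hsp70 that binds unfolded chains and holds the stress sensors inactive. Its brightest probe set (1416064_a_at) read 12.74, 12.83, 12.72 and 12.78 in luciferase arrays 1 to 4 and 12.82, 12.75, 12.76 and 12.84 in Ctr9 esiRNA arrays 1 to 4. The 2 sets of values overlap, at 12.77 ± 0.048 and 12.79 ± 0.045 (SD, n = 4 each). The difference of 0.03 (SE 0.047) did not pass (limma, Benjamini-Hochberg adjusted p = 0.758), and its 95% interval runs from a fall of 5.34% to a rise of 9.42%. The dimmer Hspa5 probe sets stood higher with Ctr9 esiRNA. One differed by 0.14 (SE 0.056, adjusted p = 0.0981), and the dimmest, 1447824_x_at, rose by 0.21 (SE 0.058, adjusted p = 0.0232). That probe set read 9.07, 8.97, 9.09 and 9.04 against 9.38, 9.29, 9.17 and 9.18, with no overlap. It is the 1 probe set of the 23 that rose, and its suffix, _x_at, marks probes that may also bind other transcripts. Its call ended without luciferase arrays 1 and 2 (adjusted p = 0.119) and without arrays 3 and 4 (0.0743).

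Hsp90b1 encodes GRP94, the ER member of the Hsp90 family, which matures integrins, Toll-like receptors and growth factors. Its brightest probe set (1415889_a_at) read 12.66, 12.62, 12.54 and 12.55 in luciferase and 12.68, 12.61, 12.61 and 12.62 in Ctr9 esiRNA arrays, values that overlap. The difference was 0.04 (SE 0.047, limma adjusted p = 0.628), with a 95% interval from -4.56% to 10.5%. Its other probe set stood slightly lower, at 12.33, 12.34, 12.26 and 12.27 against 12.23, 12.21, 12.19 and 12.17. Those groups do not overlap, yet the difference of -0.10 (SE 0.043) did not pass (limma adjusted p = 0.130). The 2 probe sets of Hsp90b1 therefore differ in sign and neither passed.

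Dnajb9 and Sdf2l1 work beside BiP: Dnajb9 encodes ERdj4, a J-domain partner that also returns IRE1 to its BiP-bound state, and Sdf2l1 encodes a factor that joins ER J-proteins and keeps BiP clients soluble. The probe set of Dnajb9 (1417191_at) read 9.59, 9.55, 9.60 and 9.60 with luciferase and 9.49, 9.49, 9.48 and 9.49 with Ctr9 esiRNA. All 4 Ctr9 esiRNA arrays stood below all luciferase arrays, in a narrow band (SD 0.0057 against 0.023). The difference of -0.10 (SE 0.040) did not pass (limma adjusted p = 0.115, interval -12.1% to -0.465%). The probe set of Sdf2l1 (1418206_at) read 8.17, 8.21, 7.96 and 7.89 with luciferase and 8.23, 8.09, 8.06 and 8.20 with Ctr9 esiRNA. The luciferase arrays form 2 pairs, and the Ctr9 esiRNA arrays overlap the upper one. The difference was 0.09 (SE 0.079, limma adjusted p = 0.486), with the widest interval of the 7 genes that did not pass, -0.09 to 0.26 on the log2 scale. It was 0.22 without luciferase arrays 1 and 2 (limma adjusted p = 0.0632) and -0.04 without arrays 3 and 4 (adjusted p = 0.716), so its sign rests on which luciferase arrays are used.

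Calr and Canx encode calreticulin and calnexin, the soluble and the membrane-bound lectin chaperones that hold glycoproteins until their glycans are trimmed; calreticulin also stores calcium. The 3 Calr probe sets agreed in size. The brightest (1417606_a_at) read 12.72, 12.71, 12.75 and 12.76 with luciferase and 12.66, 12.58, 12.52 and 12.56 with Ctr9 esiRNA. These groups do not overlap, and Calr fell by 0.15 (SE 0.046, -10.0%, limma adjusted p = 0.0366). The other Calr probe sets differed by -0.15 (SE 0.044, adjusted p = 0.0270) and -0.14 (SE 0.045, adjusted p = 0.0501), both with groups apart; both also carry the suffix _x_at. The call on the brightest probe set ended without any 1 of 7 arrays (limma adjusted p = 0.0569 to 0.0964) and held without Ctr9 esiRNA replicate 1 (0.0207). It ended also without luciferase arrays 1 and 2 (0.0917) or 3 and 4 (0.171), and its adjusted p ran from 0.000485 to 0.171 over 18 alternatives. Quantile scaling ended it as well (0.0579).

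Canx pointed the same way on each of its 3 probe sets, with sizes that differ. The brightest (1415692_s_at) read 12.89, 12.93, 12.94 and 12.88 with luciferase and 12.84, 12.80, 12.82 and 12.79 with Ctr9 esiRNA. The groups lie apart by little, and the difference of -0.10 (SE 0.042) did not pass (limma adjusted p = 0.114, interval -12.5% to -0.498%). The next probe set fell by 0.15 (SE 0.045, adjusted p = 0.0398). The dimmest, 1428935_at, read 9.06, 9.19, 9.06 and 9.01 with luciferase and 8.70, 8.70, 8.64 and 8.80 with Ctr9 esiRNA, a fall of 22.9% (log2 difference -0.37, SE 0.056, limma adjusted p = 0.000731). The sources used here do not say which transcript forms the Canx probe sets read. The call on the middle probe set ended without luciferase arrays 1 and 2 (adjusted p = 0.212) and without arrays 3 and 4 (0.0541).

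Pdia4 and Pdia6 encode protein disulfide isomerases, which make and reshuffle disulfide bonds in client proteins. The brighter Pdia4 probe set (1416497_at) read 9.07, 9.09, 8.83 and 8.79 with luciferase and 9.00, 8.85, 8.92 and 8.92 with Ctr9 esiRNA. As for Sdf2l1, luciferase arrays 1 and 2 lie above arrays 3 and 4, with the Ctr9 esiRNA arrays between the pairs. The difference was -0.02 (SE 0.076, limma adjusted p = 0.892, interval -12.2% to 10.9%), and it was 0.12 without luciferase arrays 1 and 2 and -0.15 without arrays 3 and 4, neither of which passed. The brighter Pdia6 probe set (1423648_at) read 11.09, 11.20, 11.12 and 11.19 with luciferase and 11.14, 11.11, 11.20 and 11.17 with Ctr9 esiRNA. Its groups overlap fully, and the difference was 0.01 (SE 0.047, limma adjusted p = 0.928, interval -6.40% to 8.04%). The dim Pdia6 probe set (1430983_at) read 5.94, 5.79, 5.92 and 5.69 against 5.35, 5.60, 5.42 and 5.56 and fell by 0.35 (SE 0.075, adjusted p = 0.00612), near the array medians; without luciferase arrays 1 and 2 this call ended (0.0507). Averaged over both probe sets, Pdia6 fell by 0.17 (adjusted p = 0.00765), so the direction for this gene depends on the probe set taken.

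Xbp1 encodes the transcription factor of the IRE1 arm, which raises chaperones, degradation factors and lipid synthesis once its mRNA is spliced. Its brightest probe set (1437223_s_at) read 12.05, 12.14, 11.97 and 11.98 with luciferase and 11.81, 11.75, 11.78 and 11.82 with Ctr9 esiRNA. All Ctr9 esiRNA arrays stood below all luciferase arrays, and Xbp1 fell by 0.24 (SE 0.051, -15.5%, limma adjusted p = 0.0056). The next brightest, 1420886_a_at, fell by 0.31 (SE 0.049, limma adjusted p = 0.00123). A further probe set, less bright, fell by 0.23 (SE 0.060, adjusted p = 0.0180), a call that ended without luciferase arrays 1 and 2 (0.138). The dimmest Xbp1 probe set, at 6.68 with luciferase esiRNA, differed by -0.02 (SE 0.100, adjusted p = 0.920). The call on the brightest probe set held under all 18 alternatives (adjusted p 2.72e-05 to 0.0477, the highest without luciferase arrays 1 and 2). The signal counts the Xbp1 transcript as the probes bind it, and the share of the spliced form was not measured.

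Herpud1 encodes a membrane protein that gathers the ubiquitin ligase complex of ER-associated degradation, the route by which misfolded proteins leave the ER for the proteasome. Its brighter probe set (1448185_at) read 9.35, 9.42, 9.35 and 9.55 with luciferase and 8.62, 8.77, 8.86 and 8.84 with Ctr9 esiRNA. The highest Ctr9 esiRNA array lies well below the lowest luciferase array. The log2 difference was -0.64 (SE 0.069), and Herpud1 thus fell, with an adjusted p of 9.10e-05 (limma). In linear terms this is -36.0%, with a 95% interval of -42.4% to -28.7%. The other probe set (1435626_a_at) read 8.56, 8.70, 8.49 and 8.73 against 7.91, 8.19, 8.17 and 8.14 and fell by 0.52 (SE 0.078, adjusted p = 0.000771). Both probe sets thus gave similar sizes, and over 18 alternatives the difference ran from -0.68 to -0.58 with adjusted p up to 0.00199.

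**Figure D3:**
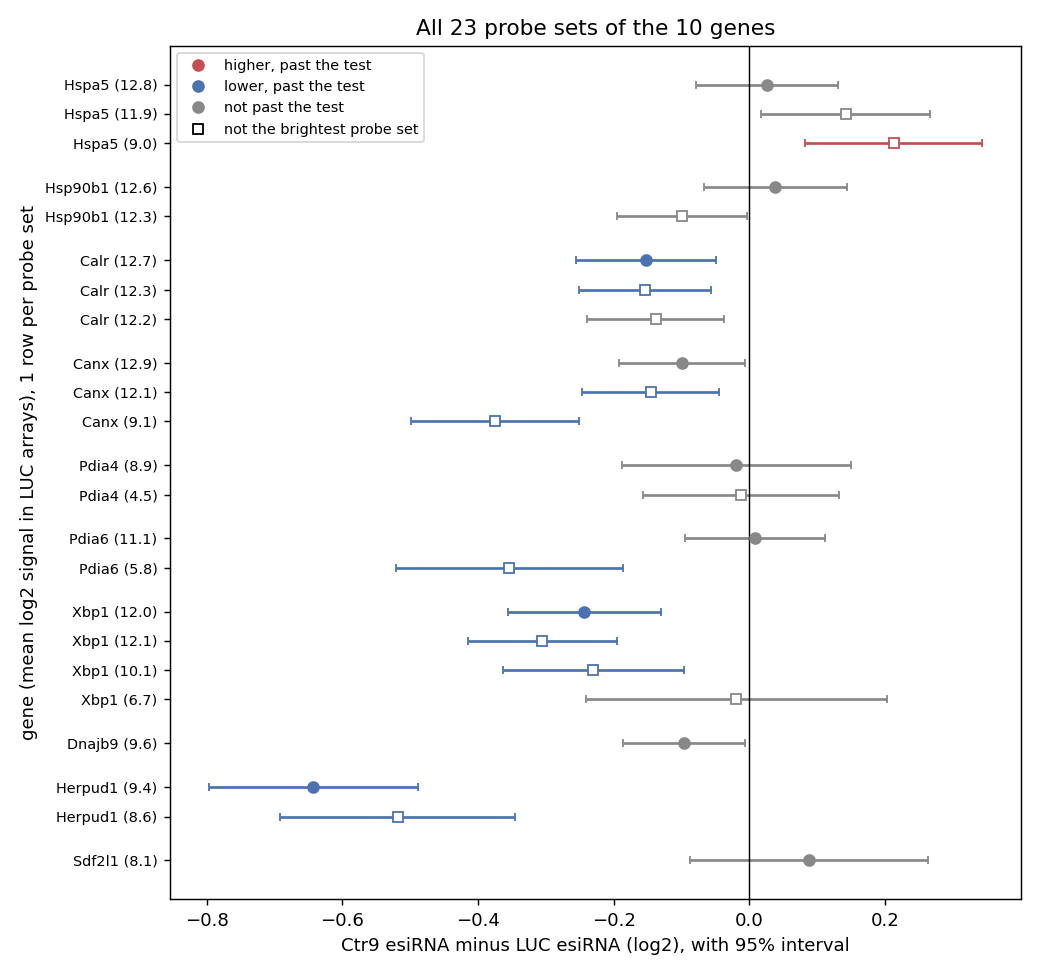
Log2 difference of Ctr9 esiRNA minus luciferase esiRNA for each of the 23 probe sets (rows, grouped by gene, with the mean log2 signal of the luciferase arrays in brackets); bars are 95% intervals from limma, filled circles the brightest probe set of a gene and open squares the others. Both Herpud1 probe sets, all 3 of Calr and all 3 of Canx lie left of 0, those of Hspa5 lie right of 0, and the 2 of Hsp90b1 and of Pdia6 differ in sign.

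Of 12 measured sensors, proteases and transcription factors of the response, 4 fell, 1 rose and 7 did not pass, at a list median of -0.12; 41.7% passed, against 30.8% of all genes. Atf6, the membrane-bound factor that is cut to reach the nucleus, read 7.85, 7.91, 8.09 and 8.08 with luciferase and 7.43, 7.67, 7.66 and 7.62 with Ctr9 esiRNA. These groups do not overlap, and Atf6 fell by 0.39 (SE 0.073, limma adjusted p = 0.00314). The other Atf6 probe sets, nearly as bright, gave -0.30 (SE 0.049), which passed, and -0.16 (SE 0.086), which did not. The Atf6 relative Atf6b fell by 0.17 (SE 0.042) and Creb3l2, another factor released from the ER membrane, fell by 0.30 (SE 0.076). The kinase gene Eif2ak3, which encodes PERK, fell by 0.23 (SE 0.069, limma adjusted p = 0.0372) with groups that overlap, and this call ended with the mean of its 3 probe sets (-0.09, adjusted p = 0.262) and without luciferase arrays 1 and 2 (0.215). It also ended without any 1 of luciferase replicates 1, 2 and 3 and Ctr9 esiRNA replicates 2, 3 and 4 (adjusted p = 0.0571 to 0.0981). Atf6b lost its call without luciferase arrays 3 and 4 (0.0831). Ern1, which encodes IRE1, differed by -0.14 (SE 0.075, limma adjusted p = 0.228). Creb3 rose by 0.43 (SE 0.058), and 3 of its 4 probe sets passed.

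Of 11 measured partners of BiP, 3 rose, 1 fell and 7 did not pass, at a median of 0.042. The 36.4% that passed are near the 30.8% of all genes. Sec63, the J-protein of the translocation pore, rose by 0.35 (SE 0.047; 0.15 averaged over its 5 probe sets, which still passed), Dnajc1 rose by 0.27 (SE 0.063) and the reductase gene Dnajc10 rose by 0.17 (SE 0.047), while Dnajb11, the J-protein ERdj3, fell by 0.15 (SE 0.041). The Dnajc1 call ended with the mean of its 6 probe sets (0.070, limma adjusted p = 0.245). It ended too without luciferase arrays 1 and 2 (adjusted p = 0.0933). The Dnajb11 call ended without Ctr9 esiRNA replicate 2 (0.0574) and without luciferase arrays 1 and 2 (0.0866) or 3 and 4 (0.0886). The Dnajc10 call ended without any 1 of luciferase replicates 3 and 4 and Ctr9 esiRNA replicates 1, 2 and 4 (adjusted p = 0.0534 to 0.0721) and without luciferase arrays 3 and 4 together (0.168).

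Of 24 genes of oxidative folding and proline isomerization, 3 rose, 4 fell and 17 did not pass, at a median of 0.013. In this list 29.2% passed, near the 30.8% of all genes. The peroxiredoxin gene Prdx4, which uses peroxide to drive disulfide formation, rose by 0.35 (SE 0.051) and the thioredoxin-like Tmx1 rose by 0.23 (SE 0.049), a call that ended without luciferase arrays 3 and 4 (limma adjusted p = 0.0620). The isomerase genes Ppic (-0.39, SE 0.056) and Fkbp14 (-0.42, SE 0.089) fell; averaged over its 2 probe sets Fkbp14 gave -0.27, which passed. Glycan trimming and the lectin cycle, in which Calr and Canx act, had 6 of 12 lower and 1 higher, at a median of -0.13. In that list 58.3% passed, against 30.8% of all genes. Clgn, a calnexin homologue known from testis, read 7.91, 7.96, 7.94 and 7.91 with luciferase and 7.11, 7.14, 7.10 and 7.19 with Ctr9 esiRNA, and fell by 0.80 (SE 0.043, limma adjusted p = 1.17e-06). Its groups lie far apart, and the other Clgn probe sets fell as well. The glucosidase subunit gene Ganab fell by 0.40 (SE 0.053), and Uggt1, whose product re-marks misfolded glycoproteins for the lectins, fell by 0.29 (SE 0.051), or by 0.17 averaged over its 3 probe sets. The first glucosidase of the pathway, Mogs, rose by 0.39 (SE 0.054). Ganab lost its call with the mean of its 2 probe sets (-0.11, adjusted p = 0.195), of which the other is dim.

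Of 19 other measured genes of ER-associated degradation, the route of Herpud1, 4 rose, 2 fell and 13 did not pass, at a median of 0.046. The 31.6% that passed are near the 30.8% of all genes. Ube2j1, the ubiquitin-conjugating enzyme of this route, read 7.30, 7.39, 7.26 and 6.94 with luciferase and 8.03, 8.09, 8.09 and 8.10 with Ctr9 esiRNA. These groups do not overlap, and Ube2j1 rose by 0.86 (SE 0.087, 1.81-fold, limma adjusted p = 6.28e-05). Sel1l, the scaffold of the ligase complex that Herpud1 joins, fell by 0.36 (SE 0.044; by 0.19 averaged over its 5 probe sets) and the ligase gene Rnf5 fell by 0.34 (SE 0.052). Derl2, a channel component, rose by 0.39 (SE 0.043) on its brighter probe set, but its other probe set fell by 0.20 (SE 0.060), and the mean of both did not pass (0.093, adjusted p = 0.0873).

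Of 22 genes of translocation into the ER, 7 rose, the most among the 7 ER lists, and 2 fell, at a median of 0.075; 15.8% of all genes rose. Serp1, which stabilizes membrane proteins at the translocon under stress, rose by 0.43 (SE 0.045). The signal recognition particle gene Srp9 (0.31, SE 0.043), the signal peptidase gene Spcs1 (0.24, SE 0.042) and the translocon partner Tram1 (0.24, SE 0.042) rose too. A second Srp9 probe set, less bright, gave -0.03 and missed the threshold, and their average rose by 0.14. Of 23 genes of ER to Golgi transport, 6 fell and 1 rose, at a median of -0.02. In this list 30.4% passed, near the 30.8% of all genes. Kdelr3, a receptor that returns BiP and other chaperones with a C-terminal retrieval signal to the ER, read 8.78, 8.66, 8.57 and 8.46 with luciferase and 7.41, 7.64, 7.75 and 7.62 with Ctr9 esiRNA, a fall to 0.494-fold (log2 difference -1.02, SE 0.085, limma adjusted p = 1.72e-05). This is the largest difference in the ER lists, on groups that do not overlap, and Kdelr3 is read by 1 probe set. The cargo receptors Tmed10 (-0.36, SE 0.045) and Lman1 (-0.22, SE 0.042) and the coat protein gene Sec23a (-0.26, SE 0.047) fell. Lman1 lost its call with the mean of its 5 probe sets (adjusted p = 0.0937).

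Together these 7 ER lists hold 123 measured genes besides the 10, of which 20 rose, 25 fell and 78 did not pass, at a median of -0.0036. Over all genes the median was 0.0036, and 15.8% rose and 15.0% fell; 36.6% of the 123 passed, against 30.8% of all genes. Rises and falls were thus close in number. In the luciferase arrays the 123 genes averaged 9.67 to 9.71, against 7.14 to 7.16 for all genes. Here and for the other lists, the share of all genes is not matched for signal, and the part of signal was not tested.

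The transcripts of the ATF4 arm and of amino acid stress stood lower in the same arrays. Of 39 measured genes, 28 fell and 1 rose, at a median of -0.41. In this list 74.4% passed, against 30.8% of all genes. Atf4 itself read 11.83, 11.84, 11.86 and 11.92 with luciferase and 10.85, 10.98, 11.07 and 10.98 with Ctr9 esiRNA. Its groups lie far apart, and Atf4 fell by 0.89 (SE 0.055, limma adjusted p = 2.46e-06), as did its other probe sets, by 0.53 and 0.26; the average over its 3 probe sets fell by 0.56. Ddit3, which encodes the factor CHOP downstream of PERK and ATF4, read 9.11, 9.15, 9.16 and 9.12 against 7.77, 7.96, 8.15 and 8.11 and fell by 1.14 (SE 0.078, limma adjusted p = 4.69e-06). Nupr1, a small stress-induced chromatin protein gene, fell by 2.06 (SE 0.095), the factor gene Atf5 fell by 1.22 (SE 0.059), the arginine transporter gene Slc7a1 fell by 1.04 (SE 0.061) and Aldh1l2, a mitochondrial folate enzyme gene, fell by 0.91 (SE 0.044). The list was written with earlier results of these data known, so its direction is not independent evidence, and the difference between this list and the ER lists was not tested. Between 28 and 34 of its genes passed over 18 alternatives.

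**Figure D4:**
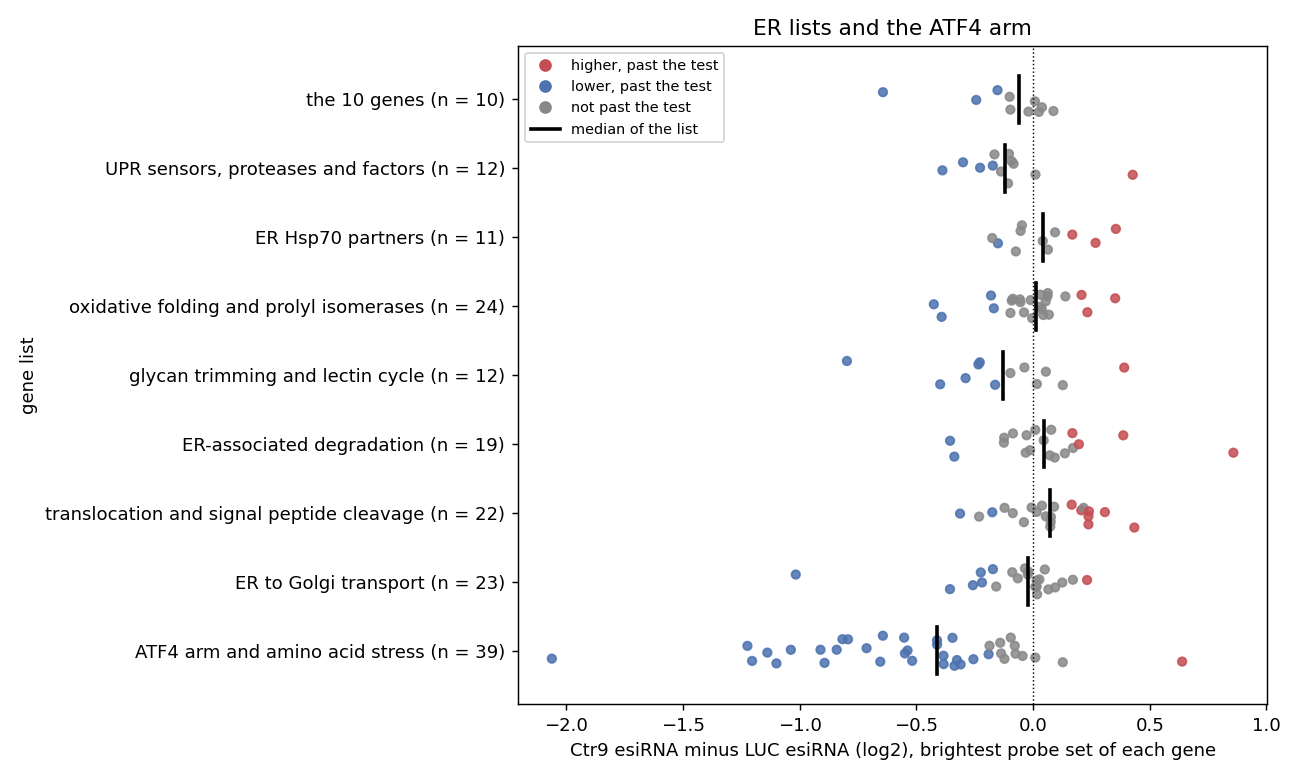
Log2 difference of Ctr9 esiRNA minus luciferase esiRNA for the brightest probe set of each gene (points, with vertical scatter for legibility), by gene list; colour shows the call and the black bar the list's median. The 10 genes and the 7 ER lists have medians between -0.13 and 0.075, and the ATF4 arm has a median of -0.41.

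The motif matches shown above were set against the whole array as a description. Among 20 measured genes whose window holds an exact ERSE, 5 of them among the 10, 7 fell and 1 rose, with a median of -0.044. Calr is 1 of those that fell. All 14452 measured genes with a window had 2210 lower and 2284 higher, with a median of 0.0022. The ATF4 composite element stood in the windows of 468 measured genes, of which 82 fell and 58 rose, with a median of -0.014. It was present in 11 of the 31 genes of the ATF4 list that have a window, and Herpud1 was the 1 gene of the 10 that holds it. That list was written around ATF4, so its matches are a description, and enrichment was not tested. Herpud1 also holds the ERSE-II, shared with 9 measured genes in all, of which 3 fell and 3 rose.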

How the data were processed

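RNA of 8 mouse ES cell samples was measured on 1-colour Affymetrix arrays. The authors deposited 1 log2 signal per probe set and sample. Per the submitters' processing notes, GCOS 1.4 and RMA were used, and their settings are not stated. RMA brings arrays to 1 distribution and shrinks differences among low signals. The values were used as deposited. Of 45101 probe sets, 64 manufacturer's controls were left out and 45037 tested with limma 3.58.1 in R 4.3.3 (lmFit, eBayes), 4 arrays against 4, with Benjamini-Hochberg adjustment over all of them, at 0.05. SEs are moderated; intervals are 95% and unadjusted. Of these probe sets, 34945 have 1 symbol, 932 several and 9160 none; symbols were updated through GRCm38.p6 gene identifiers. A gene was read by its probe set with the highest mean. The 23 member probe sets have no empty value. Of 280 listed symbols 273 were measured. Named are the 10 members, Ctr9, Atf4, Ddit3, Ern1, Atf6, Eif2ak3 and, per list, up to 4 genes with the smallest adjusted p among those that passed with groups apart; markers named beyond these were chosen after their values were seen. Members and lists were chosen with earlier results of these data known. The fit was tested on simulated data. Alternatives were a filter on dim probe sets, other scalings, a trended robust prior, array weights, a replicate block, leaving out arrays and averaging all probe sets of a gene; leaving out luciferase arrays in pairs was added after seeing the data, since principal component 2 (8.93% of variance) sets 1 and 2 apart from 3 and 4. Figures were drawn with matplotlib 3.10.9.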

Additional observations from a re-analysis of the deposited data

Results flagged for a closer look

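In 5 of the 166 groups of 4 arrays examined for the named genes, 1 array lay far from the other 3 relative to the range of the group; chance gives this in about 1 of 20 groups. In Ctr9 esiRNA replicate 1 the dimmest Xbp1 probe set read 6.89, with the other arrays at 6.57 to 6.61. The same array read Ube2j1 at 8.03 (others 8.09 to 8.10), Aldh1l2 at 5.65 (others 5.60 to 5.61) and Lama1, a laminin gene, at 8.36 (others 8.65 to 8.71). Luciferase replicate 4 read the placental gene Plac1 at 4.95 (others 5.07 to 5.08).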

How the results depend on the processing

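The falls of Herpud1 and Xbp1 kept their direction and their call under all 18 alternatives. The count of the 10 genes past the threshold, 3 as reported, was 5 among probe sets above the median signal, where Canx and Dnajb9 also passed. It was 7 with all probe sets of a gene averaged (6 lower, 1 higher). The share of all genes that passed in those settings is not given here, so these counts cannot be set against it. With probe sets averaged, Pdia6 fell by 0.17, where its brighter probe set gave 0.01 without passing. Hspa5 rose by 0.13 (limma adjusted p = 0.0317), Canx fell by 0.21 and Dnajb9 passed (adjusted p = 0.0461). The fall of the cytosolic Dnajb6 was lost in that setting (0.0027, limma adjusted p = 0.965). Canx also passed with a trended robust prior (adjusted p = 0.00314). Without 1 array at a time, 2 to 3 of the 10 genes, 36 to 41 of the 123 other ER genes and 9556 to 10135 probe sets passed. Counts of single lists moved by over 1.5 times for BiP partners (from 4 to 2 with the replicate block, without Ctr9 esiRNA replicate 2 and without either pair of luciferase arrays), oxidative folding (from 7 to 3 without luciferase arrays 3 and 4) and cytosolic chaperones (from 7 to 4 in 8 settings that leave out arrays or add the block, and to 13 with the trended robust prior). Whether the replicate numbers pair the samples is not stated in the labels. Deviations of same-numbered arrays correlated at -0.078 to 0.063, which does not settle it with 4 arrays a group. By this measure Ctr9 esiRNA arrays 1 and 3, but not 2 and 4, were closest to the luciferase array of the same number. With the replicate block 9771 probe sets, 2 of the 10 genes and 35 of the 123 ER genes passed, and Calr (adjusted p = 0.0928), Dnajb11 (0.0730), Dnajc10 (0.0550) and Eif2ak3 (0.0720) did not. Other scalings shifted the median of all genes to at most 0.013.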

Other observations

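Chaperones outside the ER were read in the same way. Of 11 measured chaperones and proteases of the mitochondrion, 6 fell and none rose, at a median of -0.20. In this list 54.5% passed, against 30.8% of all genes. The count past the threshold ran from 4 to 8 over 18 alternatives. Hspa9, the mitochondrial Hsp70, fell by 0.23 (SE 0.042, limma adjusted p = 0.00261), from 12.64 ± 0.018 to 12.41 ± 0.036 (SD, n = 4 each), and its other probe sets differed by -0.28, -0.28, -0.18 and -0.07. Its J-protein partner Dnaja3 fell by 0.37 (SE 0.050; by 0.20 averaged over its 3 probe sets), the Hsp90 family gene Trap1 fell by 0.35 (SE 0.054) and the iron-sulfur co-chaperone gene Hscb fell by 0.39 (SE 0.074).

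Of 30 cytosolic heat shock chaperones and chaperonin subunits, 3 rose and 4 fell, at a median of 0.0048. In this list 23.3% passed, against 30.8% of all genes. Hspa4l, a nucleotide exchange factor for Hsp70, rose by 0.70 (SE 0.064; by 0.35 averaged over its 5 probe sets) and Hspa1a, whose near-identical copy Hspa1b the probes may also read, rose by 0.50 (SE 0.047). Dnajc7 fell by 0.35 (SE 0.043), and Dnajb6 fell by 0.32 (SE 0.043) on its brightest probe set while its dimmest rose by 0.56 (SE 0.066).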
